A study of Mus musculus with 4 samples.

Results

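The dorsal telencephalon, from which the cerebral cortex forms, is laid out by a small set of transcription factors that progenitor cells express in opposing gradients. The genes described here were the homeobox genes Emx1 and Emx2, the LIM-homeobox gene Lhx2, the paired-box gene Pax6, the COUP-TF nuclear receptor genes Nr2f1 and Nr2f2, the zinc finger gene Fezf2, the DM-domain gene Dmrta2 and the T-box gene Tbr1. They were chosen by symbol among autosomal genes, whatever their level, and make up 9 of the 55599 entries of the table. In the embryo, Pax6 and Emx2 are strong at opposite ends of the cortical sheet and Nr2f1 is strong caudally, while Lhx2 and Dmrta2 set the border between cortex and the medial signalling centre called the hem. Emx1 marks the cortical progenitors as a whole, Fezf2 specifies neurons that project below the cortex, and Tbr1 comes on in the early-born cortical neurons after division has ended.

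Polyadenylated RNA was sequenced from neurospheres, suspension cultures in which neural stem cells and their progeny grow as balls. The cortex of C57BL/6 mice at embryonic day 12.5 was the source, and passage 3 cultures were used. The groups were 2 libraries of wild-type (WT) cells and 2 of LncBAR-KO cells, in which the long noncoding RNA LncBAR is knocked out. The sources used here say neither how the knockout was made nor whether replicates are different animals or cultures. The p-values therefore cover the variation among these 4 libraries, part of which may be technical. LncBAR itself was not analysed here.

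Deposited counts per library totalled 17244057 to 18280445. Before any comparison of the genotypes it must be said that they were divided by sex chromosome as well. Xist, the noncoding RNA of the inactive X chromosome, was counted 36766 and 31563 times in the WT libraries and 7 and 4 times in the KO libraries, while the Y-linked genes Ddx3y, Eif2s3y, Kdm5d and Uty together had 0 counts in each WT library and 3962 and 4449 in KO. Genotype and sex-chromosome content therefore cannot be told apart in any value below. Values of the 4 libraries are given in the order WT replicate 1, WT replicate 2, KO replicate 1 and KO replicate 2.

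The factors formed a set of higher and a set of low or near-zero level, and the division was the same in all 4 libraries. Nr2f1, Lhx2, Dmrta2, Emx2 and Pax6 had a mean level of at least 1 FPKM (fragments scaled to gene length and library size), the filter used for testing, and 560 or more counts in every library. Nr2f2, Tbr1, Emx1 and Fezf2 lay below the filter, with at most 90 counts in any library. Between the lowest of the first set, Pax6, and the highest of the second, Nr2f2, the mean level differed 9.20-fold. In bulk RNA, fewer cells that express a gene and less RNA per cell cannot be told apart.

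**Figure D1:**
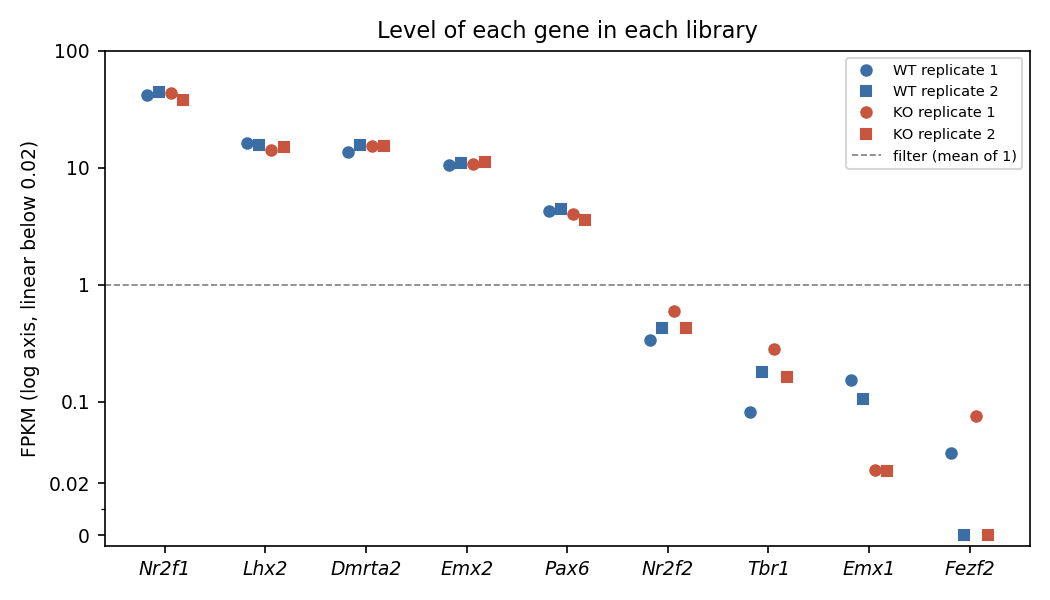
FPKM (log axis, linear below 0.02) of each of the 9 genes in the 2 WT and 2 KO libraries, one point per library, ordered by mean. Nr2f1, Lhx2, Dmrta2, Emx2 and Pax6 lie above the dashed line at 1 FPKM in every library and Nr2f2, Tbr1, Emx1 and Fezf2 below it.

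The order of the levels per length was as follows. Nr2f1 was the highest at 38.2 to 44.4 FPKM. Lhx2 (14.1 to 16.3 FPKM) and Dmrta2 (13.7 to 15.6 FPKM) overlapped, Lhx2 being above Dmrta2 in 2 of 4 libraries, so their order is not resolved. Emx2 (10.5 to 11.1 FPKM) and Pax6 (3.58 to 4.47 FPKM) each stood apart from their neighbours in the order in all 4 libraries. Among protein-coding genes, 95.2% had a mean level at or below that of Nr2f1, 84.2% at or below that of Lhx2 and 62.6% at or below that of Pax6. The corresponding shares for the low set were 45.1% for Nr2f2, 39.9% for Tbr1, 35.6% for Emx1 and 30.6% for Fezf2. Nr2f2 was above Tbr1 in every library, and Tbr1 was above Fezf2 in every library. The range of Emx1 overlapped those of Tbr1 and Fezf2, so its place beside them is not resolved.

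The place of Pax6 in this order depended on the gene length. The length in the authors' table equals all annotated exons merged (9 of 9 genes match GENCODE M21 in this), which for Pax6, with 26 annotated transcripts, is 11694 bases. The longest principal transcript of Pax6, Pax6-201, has 13 exons and 2869 bases, so the merged length is 4.08 times as long. Per base of that transcript Pax6 had 17.5, 18.2, 16.5 and 14.6 FPKM, a range that overlapped that of Dmrta2 and lay above that of Emx2 (10.8 to 11.4 FPKM on the same scale) in all 4 libraries. Dmrta2 has 1 annotated transcript of 2922 bases and did not move. Nr2f1 (60.7 to 70.6 FPKM) and Lhx2 (21.9 to 25.3 FPKM) were higher on this scale, and Lhx2 was then above Dmrta2 in all 4 libraries. Among the low genes Nr2f2 came to 0.682 to 1.22 FPKM and the order of the 4 did not differ. Which transcripts the cells made is not in these data, and this length was chosen after the values were seen.

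**Figure D2:**
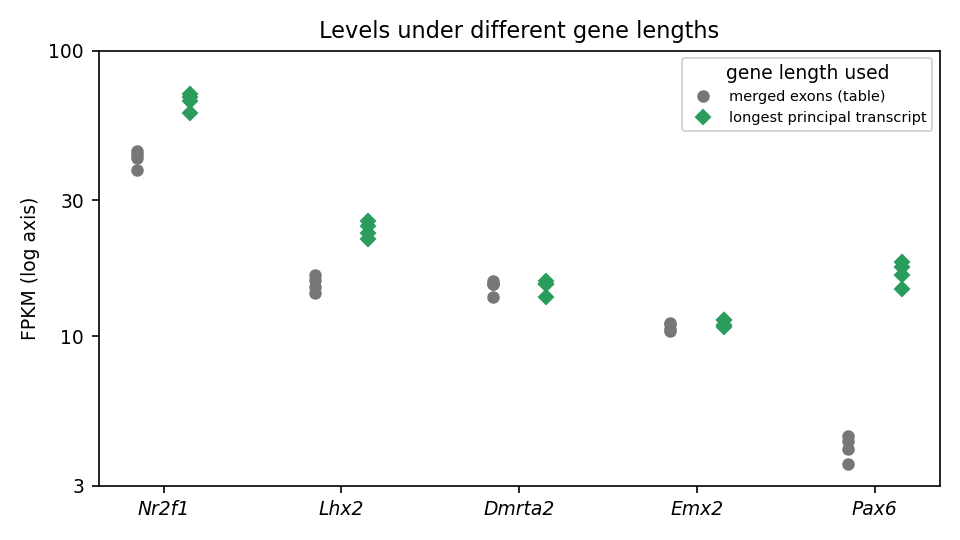
FPKM (log axis) of the 5 genes of higher level in each of the 4 libraries, with the merged exon length of the table (grey circles) or the length of the longest principal transcript (green diamonds). Pax6 moves from 3.58 to 4.47 FPKM up to 14.6 to 18.2 FPKM, while Dmrta2 stays at 13.7 to 15.6 FPKM.

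LHX2 is the LIM-homeodomain protein that gives cells cortical instead of hem identity. Its gene (ENSMUSG00000000247, chromosome 2, 38339281 to 38369733, plus strand, mm10) had 1297, 1208, 1088 and 1178 counts, or 16.3, 15.8, 14.1 and 14.9 FPKM. Both KO libraries were below both WT libraries. The means were 16.1 ± 0.395 FPKM in WT and 14.5 ± 0.538 FPKM in KO (SD, n = 2 each). In edgeR's quasi-likelihood test the log2 fold change, KO over WT, was -0.15 ± 0.08 (SE), with a 95% interval of -0.33 to 0.03 and an adjusted p of 0.828. Lhx2 was the highest of 229 genes of the Homeobox family of the table in each of the 4 libraries, and 118 of these genes had 0 counts throughout. That rank rests on merged exon lengths. In KO replicate 1 Meis2, the next by mean, was at 14.09 FPKM against 14.14 FPKM for Lhx2, with 2971 counts against 1088. The POU gene Pou3f3, at 54.6 to 60.2 FPKM, is not counted in that family. The other 7 LIM-homeobox Lhx genes were at most at 0.105 FPKM and 18 counts, that of Lhx9, and 3 had 0 counts in all libraries.

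PAX6 combines a paired domain and a homeodomain and keeps radial glia in a cortical, neuron-producing state. Pax6 (ENSMUSG00000027168, chromosome 2, 105668900 to 105697364, plus strand) had 908, 910, 827 and 754 counts, or 4.30, 4.47, 4.04 and 3.58 FPKM. Here too both KO libraries were below both WT libraries, KO replicate 2 being the lowest. The means were 4.38 ± 0.119 FPKM in WT and 3.81 ± 0.322 FPKM in KO (SD, n = 2 each), a log2 fold change of -0.21 ± 0.09 with a 95% interval of -0.41 to -0.00068. Its edgeR unadjusted p of 0.0494 became 0.811 after adjustment over 12997 genes, of which 2.95% were lower in KO at an unadjusted p under 0.05. Pax6 was the only one of 9 PAX genes with a mean of at least 1 FPKM, and the other 8 had at most 5 counts in a library.

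EMX2 is a homeodomain protein of caudal and medial cortex. Emx2 (ENSMUSG00000043969, chromosome 19, 59458372 to 59465357, plus strand) had 567, 578, 560 and 600 counts, or 10.5, 11.0, 10.7 and 11.1 FPKM. WT and KO libraries alternated in rank, with means of 10.8 ± 0.422 FPKM in WT and 10.9 ± 0.323 FPKM in KO (SD, n = 2 each). The log2 fold change was 0.01 ± 0.09 with a 95% interval of -0.20 to 0.22 (edgeR adjusted p = 0.988), so the fit leaves room for 12.8% less to 16.4% more in KO. Among the genes of the table's Homeobox family its level, by merged exon length, ranked between 4 and 6 by library.

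EMX1, its close relative, stood at the other extreme. Emx1 (ENSMUSG00000033726, chromosome 6, 85187438 to 85204462, plus strand) had 6, 4, 1 and 1 counts, or 0.152, 0.105, 0.0261 and 0.0254 FPKM. In these libraries 3 counts of Emx1 are worth 0.0760 to 0.0788 FPKM, so both KO values are under the limit that a count of 0 allows. Summed by genotype the counts were 10 and 2, a KO to WT ratio of 0.200 whose exact 95% interval for counting error only is 0.0213 to 0.938. The edgeR fit without the filter gave a log2 fold change of -2.18 ± 1.29 (95% interval -4.83 to 0.46, adjusted p = 0.880), which also carries the spread between libraries. Intervals for counting error only also left out a ratio of 1 for Lhx2, Pax6, Nr2f1, Nr2f2 and Tbr1. They held it for Emx2, Dmrta2 and Fezf2, so the interval of Emx1 does not set it apart. Emx2 exceeded Emx1 per length 68.8-fold and 105-fold in WT and 407-fold and 437-fold in KO. That ratio was higher in both KO libraries than in both WT libraries (mean log2 difference 2.31), with an exact permutation p of 0.33, two-sided, the smallest that 2 against 2 libraries can give. Both KO ratios rest on 1 count of Emx1 each.

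NR2F1 and NR2F2 are orphan nuclear receptors of caudal and lateral cortex, NR2F2 also of the ventral and hem territories. Nr2f1 (ENSMUSG00000069171, chromosome 13, 78188973 to 78199757, minus strand) had 3873, 3944, 3868 and 3502 counts, or 42.1, 44.4, 43.4 and 38.2 FPKM. KO replicate 2 was the lowest library and KO replicate 1 lay between the WT libraries. The means were 43.3 ± 1.67 FPKM in WT and 40.8 ± 3.64 FPKM in KO (SD, n = 2 each), and the log2 fold change was -0.09 ± 0.09 (95% interval -0.29 to 0.11, edgeR adjusted p = 0.884). In the table's RXR-like nuclear receptor family Nr2f1 was the highest of 12 genes in each library, ahead of Nr2f6 (13.4 to 16.2 FPKM).

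Nr2f2 (ENSMUSG00000030551, chromosome 7, 70351944 to 70366735, minus strand) had 52, 64, 90 and 66 counts, or 0.334, 0.426, 0.596 and 0.425 FPKM, and ranked 8 of 12 in that family in each library. KO replicate 1 was the highest, while KO replicate 2 and WT replicate 2 were almost equal in FPKM. The edgeR fit without the filter gave a log2 fold change of 0.43 ± 0.25 (95% interval -0.09 to 0.95, adjusted p = 0.880). When replicate 1 or 2 of WT was left out it was 0.26 or 0.62, and for replicate 1 or 2 of KO 0.17 or 0.65. Nr2f1 exceeded Nr2f2 per length 126-fold, 104-fold, 72.8-fold and 89.9-fold. Of the summed level of Nr2f1 and Nr2f2, at least 98.6% was Nr2f1 in every library. The ratio was lower in both KO libraries (mean log2 difference -0.50), again with an exact permutation p of 0.33, two-sided, the smallest possible.

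DMRTA2, a DM-domain protein, acts with LHX2 and EMX2 in medial cortex. Dmrta2 (ENSMUSG00000047143, chromosome 4, 109978053 to 109983687, plus strand) had 724, 796, 778 and 804 counts, or 13.7, 15.6, 15.2 and 15.3 FPKM. Its WT libraries enclosed both KO libraries. The means were 14.7 ± 1.36 FPKM in WT and 15.2 ± 0.0627 FPKM in KO (SD, n = 2 each), a log2 fold change of 0.05 ± 0.09 (95% interval -0.16 to 0.26, edgeR adjusted p = 0.941). It was the highest of 7 DM genes in each library, ahead of Dmrtb1 at 9.83, 11.5, 12.6 and 10.7 FPKM. The related Dmrta1 (0.490 to 0.712 FPKM) and Dmrt3 (0.0469 to 0.117 FPKM), which are also cortical progenitor genes, lay below the filter.

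FEZF2 and TBR1 belong to the neurons that cortical progenitors make, FEZF2 also to early progenitors. Fezf2 (ENSMUSG00000021743, chromosome 14, 12342094 to 12348189, minus strand) had 2, 0, 4 and 0 counts, at most 0.0750 FPKM. A count of 0 allows up to 0.0565 FPKM in WT replicate 2 and 0.0547 FPKM in KO replicate 2. The KO to WT ratio of 4 to 2 counts was 2.0, with an exact 95% counting interval of 0.287 to 22.1, which leaves its direction undetermined. Tbr1 (ENSMUSG00000035033, chromosome 2, 61802930 to 61814114, plus strand) had 8, 17, 27 and 16 counts, or 0.0807, 0.178, 0.281 and 0.162 FPKM. WT replicate 1 was the lowest and KO replicate 1 the highest, and the other 2 libraries lay close together between them. The edgeR fit without the filter gave Tbr1 a log2 fold change of 0.78 ± 0.45 (95% interval -0.15 to 1.71, adjusted p = 0.880). Leaving out either WT library in turn, replicate 1 first, gave 0.31 and 1.44, and leaving out either KO library gave 0.34 and 1.12. Its relative Eomes, the T-box gene of intermediate progenitors, had 3 to 9 counts per library.

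None of the 5 members that passed the filter was called between KO and WT at an adjusted p of 0.05 in edgeR, where 0.0692% of 12997 genes tested were called. One of them, Pax6, had an unadjusted p under 0.05. None of the 9 was called in the fit without the filter either, where 0.106% of 29222 genes were, nor in DESeq2, limma or the authors' deposited table, which lists adjusted p of 0.9999 or 1 for all 9. The groups did not overlap in FPKM for 3 of 9 members, Lhx2, Pax6 and Emx1, each lower in KO. Without regard to direction the same held for 30.4% of the 29222 genes with at least 1 count, and 15.4% were lower in this way. For the 5 members past the filter the 95% interval of the change lay within 1.5-fold in either direction, as it did for 78.8% of the genes tested. The members below the filter were measured less well, and for Tbr1, Emx1 and Fezf2 the interval reached past 2-fold.

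**Figure D3:**
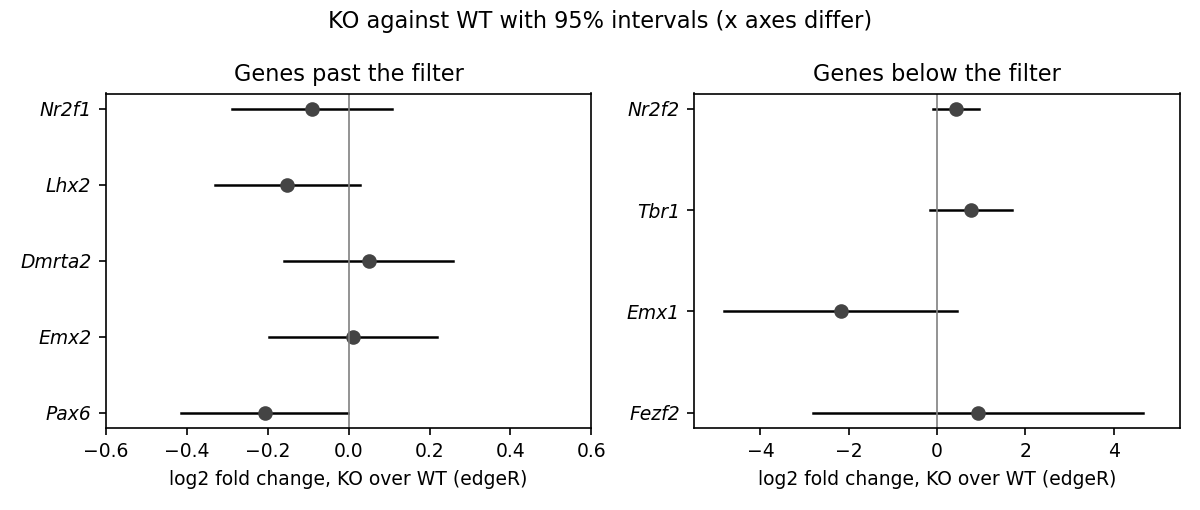
Log2 fold change of KO over WT in edgeR with 95% intervals, for the 5 genes past the filter (left, all genes tested with the filter) and the 4 below it (right, fit without the filter, wider x axis). The intervals on the left stay within -0.41 to 0.26, and those of Emx1 and Fezf2 on the right span -4.83 to 4.67.

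Most of these genes have a noncoding gene on the opposite strand at or near their start, and the library kit did not keep strand. By a search of the table for genes that overlap a member on the other strand, or start within 5 kb of its start there, 6 of 9 members had such a long noncoding RNA gene. Of autosomal protein-coding genes 19.7% did. The share was 27.1% of autosomal genes assigned to a transcription factor family and 37.4% of autosomal Homeobox genes. The antisense genes that passed the filter belonged to 3 of the members of higher level. Emx2os, which begins inside the first exon of Emx2, had 161, 157, 152 and 157 counts (1.73 to 1.79 FPKM, log2 fold change -0.05 ± 0.17, edgeR adjusted p = 0.972). A830082K12Rik at Nr2f1 had 495, 466, 494 and 448 counts (3.02 to 3.42 FPKM, -0.03 ± 0.11, edgeR adjusted p = 0.968). Dmrta2os, whose start lies 240 bases from that of Dmrta2, had 34, 37, 17 and 33 counts, with KO replicate 1 the lowest (log2 fold change -0.51 ± 0.36, edgeR adjusted p = 0.840).

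The ratio of member to antisense counts was steady for 2 of these pairs. Emx2 had 3.52, 3.68, 3.68 and 3.82 counts per count of Emx2os, and Nr2f1 7.82, 8.46, 7.83 and 7.82 per count of A830082K12Rik. For Dmrta2 the ratio was 21.3, 21.5, 45.8 and 24.4. In GENCODE M21, 264 exon bases are common to Emx2 and Emx2os, 8.79% of the merged exons of Emx2, and 123 are common to Nr2f1 and A830082K12Rik, 2.42% of those of Nr2f1. Reads there cannot be assigned to a strand, and no exon base is common to Dmrta2 and Dmrta2os. The antisense gene of Nr2f2, B130024G19Rik, had 0, 0, 1 and 2 counts, and Pax6os1 at Pax6 had 0, 0, 0 and 2. Within Lhx2 lie Gm27197 (4 to 10 counts) and Gm13584 (0 to 4 counts).

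**Figure D4:**
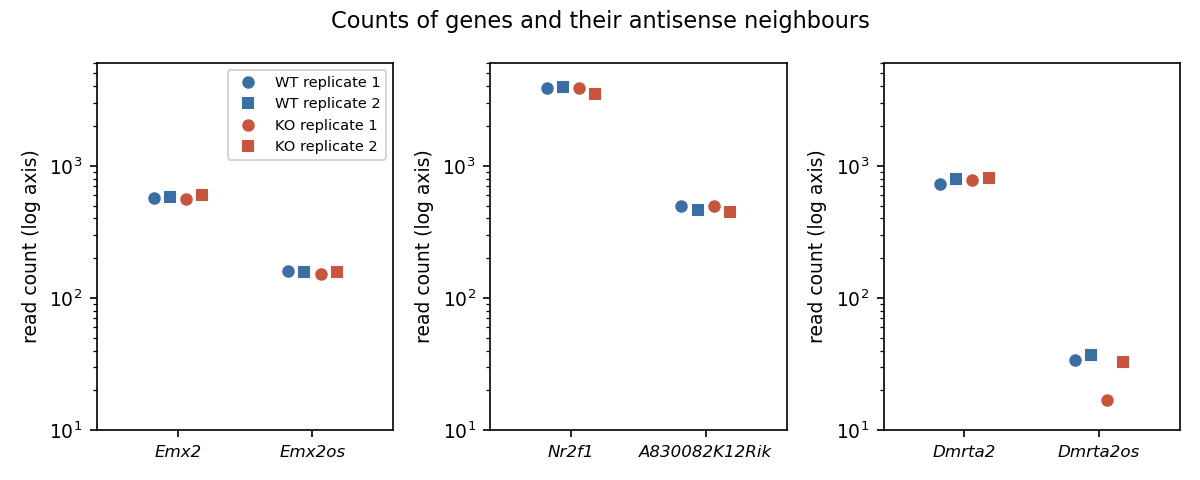
Read counts (log axis) of Emx2, Nr2f1 and Dmrta2 and of their antisense neighbours in the 2 WT and 2 KO libraries. Emx2os stays at 152 to 161 counts and A830082K12Rik at 448 to 495, and Dmrta2os is lowest in KO replicate 1 with 17.

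Promoter sequences are shown for the 3 members of higher level whose 250 bases before the RefSeq start (GRCm38.p6) hold no exon base of the same gene, to let the reader see what kind of start these genes use. The window of Dmrta2 does hold exon bases of its antisense neighbour Dmrta2os. Capitals mark each CG dinucleotide, the site of DNA methylation.
Lhx2, chr2:38339031-38339280 (plus strand): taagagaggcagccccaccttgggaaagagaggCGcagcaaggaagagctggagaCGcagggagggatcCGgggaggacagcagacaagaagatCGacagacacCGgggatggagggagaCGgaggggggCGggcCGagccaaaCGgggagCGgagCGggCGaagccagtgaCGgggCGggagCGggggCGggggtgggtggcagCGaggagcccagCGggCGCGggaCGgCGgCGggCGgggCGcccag
Pax6, chr2:105668646-105668895 (plus strand): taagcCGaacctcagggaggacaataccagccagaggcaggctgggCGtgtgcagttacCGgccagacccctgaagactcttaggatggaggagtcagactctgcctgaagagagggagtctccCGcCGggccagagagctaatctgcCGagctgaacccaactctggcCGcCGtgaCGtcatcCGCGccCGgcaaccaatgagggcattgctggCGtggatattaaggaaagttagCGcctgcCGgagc
Dmrta2, chr4:109977775-109978024 (plus strand): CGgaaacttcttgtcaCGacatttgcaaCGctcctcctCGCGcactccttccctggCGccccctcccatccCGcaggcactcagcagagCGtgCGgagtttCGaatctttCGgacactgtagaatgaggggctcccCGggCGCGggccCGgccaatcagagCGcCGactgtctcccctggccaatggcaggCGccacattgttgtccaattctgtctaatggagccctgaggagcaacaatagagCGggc
The window of Lhx2 held 25 CG dinucleotides, that of Dmrta2 19 and that of Pax6 15, against a median of 6 in 32851 such windows. As many or more were found in 10.7%, 19.7% and 27.3% of all windows. RefSeq gives 12 windows for the 9 members, of which 4 are free of exons of the same gene, the fourth being that of Nr2f2 with 1 CG and a GC content of 50.0%. That window precedes a shorter Nr2f2 transcript and not the principal one, and it holds exon bases of B130024G19Rik. Windows with exon bases of the same gene held from 2 CG, in the second Nr2f1 window, to 30 at Emx1, with 5 at Tbr1. The motif CCAAT was found on either strand in 4 of the 12 windows and in 33.8% of all windows, TAATTA, a core that homeodomains bind, in 1 of 12 and in 4.84% of all, and TATAAA and AGGTCA in 0 of 12 and in 12.4% and 14.0% of all. None of these motifs lies inside another.

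The remaining genes of cortical patterning were read from lists. Of 17 other regional regulators of the dorsal telencephalon 10 passed the filter, and 0 were called. Of these 10, 9 had a fold change below 0 and the median log2 fold change was -0.10, beside a median of 0.003 and 6371 of 12997 genes below 0 among all genes tested. Pou3f3, a POU factor of cortical progenitors and the highest of them, was at 59.4, 58.0, 60.2 and 54.6 FPKM (log2 fold change -0.04 ± 0.08, edgeR adjusted p = 0.949). KO replicate 2 was its lowest library, as it was for Nr2f1 and Pax6.

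The list of signals of the cortical patterning centres also held genes that respond to FGF, and its genes were expressed in part. Of 23 genes 9 passed the filter and 0 were called, with a median log2 fold change of 0.01. The FGF-induced transcription factor gene Etv5 stood at 109 to 122 FPKM and the FGF feedback inhibitor gene Spry2 at 65.2 to 86.6 FPKM. The ligand genes differed widely in level. Bmp7 (23.7 to 26.7 FPKM), Wnt7a (19.3 to 21.6 FPKM), Wnt7b (16.7 to 18.7 FPKM) and Wnt5a (12.9 to 13.4 FPKM) passed the filter, whereas Fgf8, Wnt3a and Wnt8b had 0 or 1 count in each library and Fgf15 had 0 in all. Fgf17 and Fgf18 also lay below the filter. Cofactors of the members were well expressed, 12 of 13 passing the filter and 0 called, with a median of 0.06. Ldb1, the adaptor through which LIM-homeodomain proteins such as LHX2 assemble, was at 37.3, 37.9, 39.0 and 36.1 FPKM, and Lmo4, a LIM-only protein that competes for it, at 54.9, 53.0, 56.4 and 60.5 FPKM (log2 fold change 0.11 ± 0.08, edgeR adjusted p = 0.848).

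Of 22 genes of intermediate progenitors and excitatory cortical neurons 8 passed the filter and 0 were called, with 7 of 8 below 0 and a median of -0.07. Those 8 included Tle4 (19.5 to 20.8 FPKM) and Cux1 (5.76 to 7.14 FPKM), while Neurog1, Slc17a6 and Slc17a7, which mark the making and the transmitter of excitatory neurons, had at most 8 counts in a library. The low counts of Emx1, Tbr1 and Fezf2 stood beside low counts of other genes of that lineage.

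Marker genes bear on the label of cortical neural stem cells. All 13 radial glia and stem cell genes passed the filter, led by Fabp7 (1340 to 1614 FPKM) and Vim (812 to 858 FPKM), with a summed level of 3015 and 3115 FPKM in WT and 3196 and 3308 FPKM in KO. Of 21 genes of diencephalon, midbrain, hindbrain and spinal cord 2 passed, Tcf7l2 (3.83 to 4.14 FPKM) and Gbx2 (1.21 to 2.0 FPKM), and 8 had 0 counts in all libraries, among them all 6 Hox genes looked at. Ventral telencephalon genes summed to 717 and 766 FPKM in WT and 756 and 785 FPKM in KO, nearly all from Olig1 (520 to 576 FPKM) and Olig2 (164 to 178 FPKM), which are oligodendrocyte lineage genes too. Nkx2-1 and Isl1, which define ventral territories, had 0 counts. Of 8 oligodendrocyte lineage genes 7 passed the filter, all 9 astrocyte genes did (summed 503 to 564 FPKM in WT and 495 to 543 FPKM in KO) and 4 of 8 pan-neuronal genes did (summed 58.0 to 59.4 FPKM over the libraries). None of 17 genes of vessels, blood, immune and connective tissue passed, with a sum of 1.96 to 2.58 FPKM and Cdh5, Hba-a1 and Hbb-bt at 0 counts. None of the genes in these marker lists was called, and their part in the values of the patterning factors was not tested.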

How the data were processed

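Per the labels' protocols, polyadenylated RNA went into non-stranded libraries that were read as 150 bp pairs. The submitters' processing notes name Cufflinks 2.2.1, TopHat2 2.1.1, cutadapt 1.16 and the build mm10. Counting tool and annotation release: not given in the sources used here. Per the file headers, the authors deposited read counts per gene, from their values not normalized, and FPKM values, which use the gene length of the table and a library size that differs from the count total. They also deposited a mean normalized count signal per genotype, a log2 fold change and p-values of their own comparison.

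Counts were tested in edgeR 4.0.16 (R 4.3.3) with the quasi-likelihood test, TMM scaling and a model of genotype alone, over genes whose mean reached 1 FPKM. P-values are two-sided with Benjamini-Hochberg adjustment over 12997 genes at 0.05. The SE is the log2 fold change over the square root of F, and 95% intervals use the total degrees of freedom. In the fit with the filter these were 2 residual and a median of 8.39 prior. Members below the filter take their values from the fit without it (29222 genes), which has its own prior degrees of freedom. Exact Poisson and binomial intervals and the floor of 3 counts cover counting error only, as PCR copies of a molecule were not marked. Alternatives were DESeq2 1.42.0, limma 3.58.1 on log2(FPKM + 1) or log2(FPKM + 0.1), other scaling and filters, fits without chromosomes X and Y or with entries of 1 symbol summed, a replicate block and leaving out each library. The steps were tested on simulated data. No library was a duplicate of another: over all pairs the chi-square of the counts was 7.78 to 18 per degree of freedom. The members and lists were chosen with earlier results of these data known. Named are the 9 members, their antisense genes, the 2 genes of highest mean FPKM per list (up to 3 called genes where a list has any) and the sex-linked check genes. 1 gene that this rule names is not reported here. Family relatives, ligands, zero or low genes of a list and Ldb1 were named after their values were seen. Exons and transcripts are from GENCODE M21 and promoters from RefSeq, which holds all 9 members.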

Additional observations from a re-analysis of the deposited data

How the results depend on the processing

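No member was called in any alternative, and of 124 alternative values of the members' fold changes 118 kept their direction, with adjusted p of 0.309 to 1. The 6 that turned were small or rest on few counts. Without 1 library Emx2 was at -0.0257 (without WT replicate 1) to 0.0482, also below 0 without KO replicate 2 (-0.0146), and it was at -0.0002 at a mean FPKM of at least 5. Dmrta2 was at -0.0394 (without WT replicate 1) to 0.1436 and Nr2f1 at -0.1893 to 0.0021 (without KO replicate 2). Fezf2 was at -3.17 (without KO replicate 1, where no KO count remains) to 4.08 (without WT replicate 1, where no WT count remains), and both of these depend on the prior count. Without 1 library Tbr1 was at 0.31 to 1.44 and Nr2f2 at 0.17 to 0.65. Pax6 ranged from -0.30 without KO replicate 1 to -0.12 without KO replicate 2, Lhx2 from -0.18 to -0.12. The log2 difference of the Emx2 to Emx1 ratio was 2.0 to 2.62 and that of Nr2f1 to Nr2f2 -0.66 to -0.35 without 1 library.

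Over all genes, 9 calls became 4 in limma on log2(FPKM + 1), 3 on log2(FPKM + 0.1), 1 without chromosomes X and Y, 31 without the filter, and 15 to 86 without 1 library, on the assumption that a single library left in a genotype varies as the other genotype does. The replicate block gave 24 calls. Replicate numbers are shared by label only, and the deviations of same-numbered libraries correlated at 0.0903 over 12997 genes, so they were not taken as pairs. Depth limits Emx1, Fezf2 and Tbr1.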

Other observations

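2 patterning genes below the filter are named here because of their counts. Otx2, a homeobox gene of forebrain and midbrain and of the choroid plexus, had counts of 79 and 49 (WT) against 0 and 24 (KO), or 1.04, 0.666, 0 and 0.316 FPKM. Its adjusted p in edgeR without the filter was 0.0605, so it was not called, and KO replicate 1 alone is at 0. Shh, the ventral signal, had 27, 15, 48 and 65 counts in the same order (log2 fold change 1.43, edgeR adjusted p = 0.0957 without the filter), and it was not called either. Among the nuclear receptor relatives of Nr2f1, Nr2e1, a factor of neural stem cell renewal, had 11.8, 12.5, 9.97 and 9.58 FPKM, with both KO libraries below both WT libraries (log2 fold change -0.32, edgeR adjusted p = 0.811), and was not called.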
